A study of Homo sapiens with 12 samples.

Results

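The purine synthesis enzymes described here are 10 genes of de novo purine nucleotide synthesis, PRPS1, PPAT, GART, PFAS, PAICS, ADSL, ATIC, IMPDH1, IMPDH2 and GMPS. They were chosen by gene symbol from the 57353 gene names of the count table. The rule that selects them uses no measured value, although it was written with earlier results of these data known. All 10 were found, and all 10 were among the 12998 genes that passed the filter on low counts (a mean count of at least 1 and a mean of at least 1 CPM, the count scaled to the size of its library).

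De novo synthesis builds the purine ring step by step on an activated sugar, PRPP, which PRPS enzymes make from ribose phosphate. A chain of enzymes then carries PRPP to IMP, from which separate branches lead to AMP and GMP, and the ring takes carbon from the folate one-carbon cycle. Dividing leukemia cells draw on the pathway for DNA and RNA, and antimetabolites used against leukemia, such as methotrexate and mercaptopurine, act on it.

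The cells were MOLM-13, a human line from acute myeloid leukemia (AML) with FLT3-ITD, an activating duplication in the FLT3 receptor, which the labels give as genotype WT. All 4 groups were treated for 15 hr, with vehicle (DMSO) or with 3 nM quizartinib (AC220), a FLT3 kinase inhibitor. Each treatment was given in RPMI, the regular medium, or in hBMSC-CM, in which RPMI was mixed with an equal part of medium that had been on HS-5 cells, a stromal line from human bone marrow. Each group had 3 replicates, 12 poly-A-selected libraries in all, and the comparisons ask what quizartinib does to these transcripts in each medium and whether the medium changes that effect.

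A single cell line was used, so no result speaks to other AML cells. The labels do not say whether replicates were separate cultures. The authors' reporting checklist calls all replicates biological but does not describe how they were cultured. The p-values therefore measure the spread between these libraries, and how much of it is technical was not tested. Total counts were between 19966546 and 31546104 per library, so that a gene with no count could have a level of at most 0.0951 to 0.150 CPM (3 counts, counting error only), and the lowest count of any enzyme in any library was 189, for ADSL. All 8 myeloid markers examined, among them CD33 and SPI1, were detected in every library, at a summed level of 1162 to 2391 CPM, with MPO the lowest at 67 to 133 counts. Of 8 stromal markers, COL3A1, LUM, DCN and THY1 were at 0 in every library, COL1A2 and FAP did not exceed 2 counts, and the summed level of the list was 0.382 to 5.56 CPM. PDGFRB had 2 to 24 counts and COL1A1 3 to 134, with COL1A1 the highest of the list with quizartinib in RPMI, at a mean of 4.76 CPM, and PDGFRB the highest with vehicle in both media. The share of counts on mitochondrially encoded genes moved with the drug, with means in RPMI of 0.726% (vehicle) and 1.05% (quizartinib) and in hBMSC-CM of 0.511% and 0.856%, and neither its part nor that of COL1A1 in the results was tested. Quizartinib in hBMSC-CM replicate 1 stood apart from its group in that share, at 0.683% beside 0.947% and 0.939%. Without it, 10 enzymes rather than 9 were called lower with quizartinib in hBMSC-CM, and the other counts of enzymes called given below were the same.

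Quizartinib in RPMI lowered the transcripts of the whole chain, but by very unequal amounts. PRPS1 and the enzymes of the early and middle steps, PPAT, GART, PFAS and PAICS, fell to between 24.4% and 31.2% of their vehicle level. ADSL, ATIC and GMPS were left at 44.7% to 59.2%, IMPDH1 at 74.6% and IMPDH2 at 92.1%, where the call for IMPDH2 depended on the scaling. In hBMSC-CM the same dose left PRPS1, PPAT, GART, PFAS and PAICS at 57.0% to 82.6% of the level of vehicle in RPMI. Summed over the 10 enzymes, the level was 1806 ± 33.2 CPM (SD, n = 3) for vehicle in RPMI, 919 ± 5.58 for quizartinib in RPMI, 2011 ± 36.5 for vehicle in hBMSC-CM and 1415 ± 16.7 for quizartinib in hBMSC-CM. IMPDH2 alone, which hardly moved, gave 529, 487, 536 and 500 CPM of these sums in the same order. The sums thus understate the fall of most of the other enzymes. Since these are bulk libraries, fewer cells that express a gene and less RNA per cell cannot be told apart.

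**Figure D1:**
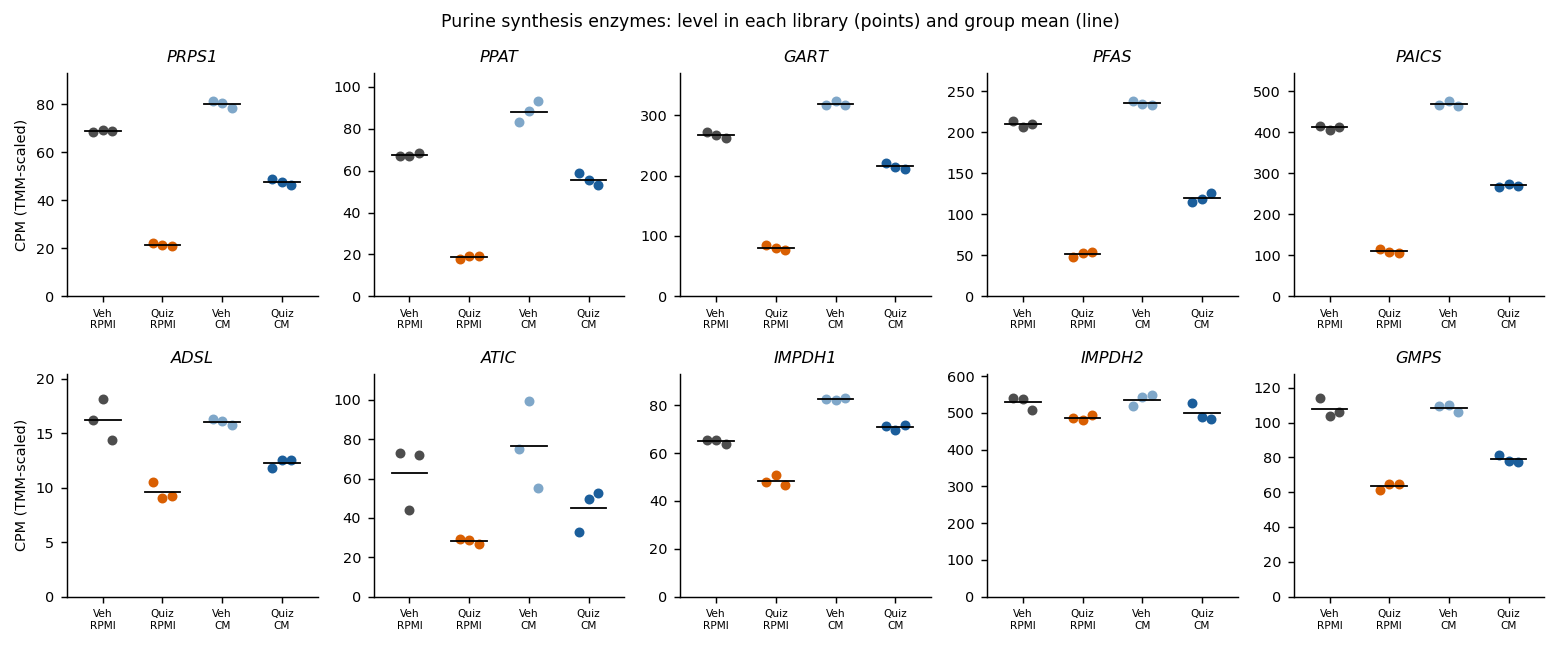
Level of each of the 10 enzymes (vertical axes, TMM-scaled CPM from 0, a separate scale for each gene) in each library (points) and the mean of each group of 3 (lines), for vehicle (Veh) and quizartinib (Quiz) in RPMI and hBMSC-CM (CM). The orange points of quizartinib in RPMI lie lowest for PRPS1, PPAT, GART, PFAS and PAICS, the 4 groups nearly coincide for IMPDH2, and the points of ATIC are widely scattered.

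In quizartinib against vehicle in RPMI, 10 of the 10 enzymes were called lower and 0 higher at an adjusted p under 0.05 (quasi-likelihood test of edgeR, Benjamini-Hochberg adjustment). Across all genes tested, 39.4% were called lower and 39.8% higher. The median log2 fold change of the 10 was −1.42, beside 0.02 over all genes tested. For all 10, the 3 quizartinib libraries lay below the 3 vehicle libraries, as they did for 40.3% of all genes tested. In hBMSC-CM, 9 of the 10 were called lower and 0 higher, beside 33.6% and 33.5% of all genes, with a median of −0.61 for the enzymes and 0.01 for all genes. The libraries of 9 enzymes did not overlap in that medium, beside 34.2% of all genes with all 3 quizartinib libraries below. The even split of calls over all genes in hBMSC-CM became a split with 62.7% of the calls higher with library size alone as the scale, and with 60.0% higher under upper-quartile factors.

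PRPS1 (chrX:107628428-107651993, plus strand, GRCh38) encodes a PRPP synthetase, which makes the sugar that every later step needs. Its level was 68.4, 69.5 and 68.8 CPM with vehicle in RPMI and 22.3, 21.2 and 20.9 with quizartinib, and 81.4, 80.5 and 78.3 with vehicle in hBMSC-CM and 48.7, 47.6 and 46.4 with quizartinib. Replicates differed by a few CPM at most, and no 2 groups overlapped. In RPMI PRPS1 fell by 1.68 on the log2 scale (SE 0.049, adjusted p = 4.58e-18) and by 0.75 in hBMSC-CM (SE 0.045, adjusted p = 5.15e-12). The effect in hBMSC-CM was the smaller, with a difference of 0.93 on the log2 scale (SE 0.066, adjusted p = 2.17e-10 for the interaction).

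PPAT (chr4:56393362-56435615, minus strand) encodes the amidotransferase that commits PRPP to purines. PPAT stood at 67.0, 66.9 and 68.5 CPM with vehicle in RPMI and at 17.9, 19.0 and 19.3 with quizartinib. In hBMSC-CM the values were 83.4, 88.3 and 93.1 with vehicle and 58.8, 55.3 and 53.1 with quizartinib. Every quizartinib library was below every vehicle library, also across media. It fell by 1.85 in RPMI (SE 0.057, adjusted p = 1.41e-17) and by 0.66 in hBMSC-CM (SE 0.051, adjusted p = 3.06e-10), and the difference of 1.19 between media (SE 0.077, adjusted p = 4.28e-11) was the largest among the 10 enzymes. An antisense RNA covers 3.29% of its canonical transcript, and without strand its reads could not be told apart.

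PAICS (chr4:56435741-56464578, plus strand) encodes a bifunctional enzyme of the middle steps and starts on the opposite strand a short distance from the start of PPAT. PAICS was at 416, 407 and 413 CPM with vehicle in RPMI and at 116, 108 and 106 with quizartinib, and at 467, 476 and 463 with vehicle in hBMSC-CM and 267, 274 and 270 with quizartinib. The groups were far apart relative to their spread. It fell by 1.90 in RPMI (SE 0.043, adjusted p = 8.68e-20) and by 0.79 in hBMSC-CM (SE 0.041, adjusted p = 5.04e-13).

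PPAT and PAICS both fell with quizartinib and rose with hBMSC-CM, as PRPS1, GART, PFAS and IMPDH1 did too. The change is thus not particular to this divergent pair, and the nearest profiles were GART for PPAT and PFAS for PAICS. The DNA between the gene models of PPAT and PAICS is shown because they are neighbours on opposite strands. It is 125 bases long, was taken from the RefSeq promoter windows of build GRCh38.p14 and is given on the plus strand at chr4:56435616-56435740, in lower case throughout since neither motif searched for occurs in it.
PPAT-PAICS interval: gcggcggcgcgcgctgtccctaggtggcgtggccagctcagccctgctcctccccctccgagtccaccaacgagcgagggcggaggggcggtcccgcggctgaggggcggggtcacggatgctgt

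RefSeq promoter windows, 250 bases before to 50 after a start, were at hand for 8 of the 10 genes (12 windows). The palindrome CACGTG, the canonical E-box bound by factors such as MYC, reads the same on both strands. It was found in 3 of the 12 windows, 1 each of PPAT, PAICS and ATIC, while 7.256% of all 35116 promoter windows hold it. The windows of PRPS1, GART, PFAS, IMPDH1 and GMPS did not hold it, although PRPS1, GART and PFAS changed much as PPAT and PAICS did. The letters TGATGNAA, the C/EBP-ATF response element bound by ATF4, were searched on both strands and were found in 0 of the 12 windows and in 3.617% of all windows. PPAT and PAICS share 1 E-box, at chr4:56435792-56435797, at position −182 from the PPAT start and 40 from the PAICS start, in an untranslated exon part of a PAICS transcript. In ATIC an E-box begins at −46 from the RefSeq start and another at 29, and both fall in untranslated exon parts of annotated ATIC transcripts. The matches, in capitals, are shown 5′ to 3′ on the strand of the gene with their flanks, so that the shared site can be read from both genes. They are letters in a window and were not tested as sites.
PPAT, chr4:56435780-56435809, minus: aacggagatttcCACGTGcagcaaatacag
PAICS, chr4:56435780-56435801, plus: ctgtatttgctgCACGTGgaaa
ATIC, chr2:215312001-215312030, plus: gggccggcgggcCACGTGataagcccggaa
ATIC, chr2:215312076-215312105, plus: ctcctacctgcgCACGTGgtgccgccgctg

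GART (chr21:33503931-33543491, minus strand) encodes a trifunctional enzyme of the early steps, one of which takes a carbon from folate. GART was at 272, 267 and 263 CPM with vehicle in RPMI, 84.1, 80.0 and 77.2 with quizartinib in RPMI, 316, 324 and 318 with vehicle in hBMSC-CM and 222, 213 and 210 with quizartinib in hBMSC-CM. It fell by 1.73 in RPMI (SE 0.043, adjusted p = 3.6e-19) and by 0.57 in hBMSC-CM (SE 0.041, adjusted p = 9.36e-11). The 3 libraries of each group were distinct from all others.

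PFAS (chr17:8247618-8270491, plus strand) encodes the amidotransferase of the step between those of GART. With vehicle in RPMI its level was 214, 207 and 210 CPM and with quizartinib 47.8, 52.1 and 54.0. In hBMSC-CM the corresponding levels were 238, 235 and 233, and 115, 119 and 125. PFAS had the largest fall of the 10 enzymes in both media, by 2.04 in RPMI (SE 0.048, adjusted p = 1.83e-19) and by 0.97 in hBMSC-CM (SE 0.045, adjusted p = 9.61e-14). In RPMI, 2.61% of all genes tested had a lower log2 fold change.

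ADSL (chr22:40346461-40390463, plus strand) encodes a lyase that acts both in the making of IMP and in the branch to AMP, and it had the lowest level of the 10. ADSL was at 16.2, 18.1 and 14.3 CPM with vehicle in RPMI, 10.5, 9.0 and 9.2 with quizartinib in RPMI, 16.3, 16.1 and 15.7 with vehicle in hBMSC-CM and 11.8, 12.6 and 12.5 with quizartinib in hBMSC-CM. Quizartinib libraries lay below vehicle libraries in both media, while the vehicle groups overlapped. It fell by 0.76 in RPMI (SE 0.088, adjusted p = 7.6e-08) and by 0.39 in hBMSC-CM (SE 0.087, adjusted p = 0.0005). In a newer annotation 30.65% of the bases of its canonical transcript are shared with another protein-coding gene on the same strand, so that its count is uncertain.

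ATIC (chr2:215311956-215349773, plus strand) encodes the bifunctional enzyme that closes the ring, with folate as the carbon donor. Its level was 72.8, 43.8 and 72.1 CPM with vehicle in RPMI and 29.0, 28.5 and 26.9 with quizartinib. In hBMSC-CM it was 75.2, 99.5 and 55.0 with vehicle and 32.8, 49.5 and 52.5 with quizartinib. Quizartinib libraries were below vehicle libraries within each medium, but replicates in 3 of the 4 groups spread widely, vehicle in hBMSC-CM most of all. The SD of ATIC within groups was 0.35 on the log2 scale, larger than that of 99.9% of the 9281 genes at a mean level of 10 CPM or more (median 0.07). ATIC fell by 1.16 in RPMI (SE 0.19, adjusted p = 1.02e-05) and by 0.78 in hBMSC-CM (SE 0.18, adjusted p = 0.000777). Both SEs are smaller than that SD would give alone with these libraries, so these p-values may be too small.

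IMPDH1 (chr7:128392277-128409986, minus strand) and IMPDH2 (chr3:49024325-49029447, minus strand) encode isozymes of the first step from IMP towards GMP. IMPDH1 was at 65.4, 65.6 and 63.9 CPM with vehicle in RPMI, 47.8, 50.7 and 46.8 with quizartinib in RPMI, 82.5, 82.3 and 83.0 with vehicle in hBMSC-CM and 71.3, 69.8 and 71.7 with quizartinib in hBMSC-CM. No groups overlapped, and quizartinib in hBMSC-CM stood above vehicle in RPMI. IMPDH1 fell by 0.42 in RPMI (SE 0.044, adjusted p = 1.38e-08) and by 0.22 in hBMSC-CM (SE 0.043, adjusted p = 0.000113).

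IMPDH2 had the smallest changes of the 10. It was at 539, 538 and 508 CPM with vehicle in RPMI and 487, 480 and 494 with quizartinib, and at 518, 542 and 549 with vehicle in hBMSC-CM and 526, 489 and 484 with quizartinib. The groups were apart in RPMI and overlapped in hBMSC-CM. The call in RPMI, a log2 fold change of −0.12 (SE 0.044, adjusted p = 0.019), was lost with library size only (−0.03, adjusted p = 0.545), with upper-quartile factors (−0.01, adjusted p = 0.792) and with a filter at 10 CPM (−0.05, adjusted p = 0.252). It was also lost without vehicle in RPMI replicate 1 (adjusted p = 0.107) or 2 (adjusted p = 0.0753) and without quizartinib in RPMI replicate 1 (adjusted p = 0.0559) or 2 (adjusted p = 0.0938). In hBMSC-CM the log2 fold change was −0.10 (SE 0.044, adjusted p = 0.0515), which other tools placed on the other side of the threshold (adjusted p = 0.0157 by DESeq2 and 0.0351 by limma-voom). It was also called when any of 6 libraries was left out, vehicle in RPMI replicate 1, quizartinib in RPMI replicates 1, 2 and 3, vehicle in hBMSC-CM replicate 1 or quizartinib in hBMSC-CM replicate 1, with an adjusted p between 0.0110 and 0.0489, and with library size only the value was 0.00. A newer annotation places 98.79% of its canonical transcript within another protein-coding gene on the same strand, so that its count is uncertain too.

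GMPS (chr3:155870650-155944020, plus strand) encodes the GMP synthetase. GMPS was at 114, 104 and 106 CPM with vehicle in RPMI and 61.3, 64.7 and 64.7 with quizartinib, and at 109, 110 and 106 with vehicle in hBMSC-CM and 81.6, 78.0 and 77.6 with quizartinib. The vehicle groups overlapped and both quizartinib groups lay apart from them and from each other. It fell by 0.77 in RPMI (SE 0.045, adjusted p = 9.2e-13) and by 0.46 in hBMSC-CM (SE 0.045, adjusted p = 1.21e-08).

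**Figure D2:**
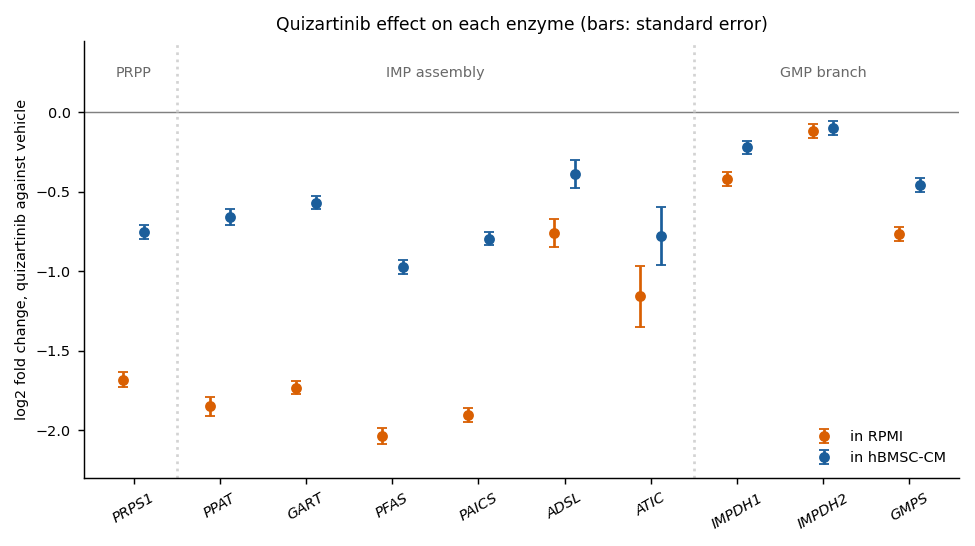
Log2 fold change of quizartinib against vehicle (vertical axis) for each enzyme in the order of the pathway, in RPMI (orange) and hBMSC-CM (blue), with bars for the standard error of the fit over 12 libraries. PRPS1, PPAT, GART, PFAS and PAICS lie between −2.04 and −1.68 in RPMI and between −0.97 and −0.57 in hBMSC-CM, while IMPDH2 lies near 0 in both media.

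Whether the medium changed the drug effect was tested as an interaction, the log2 fold change in hBMSC-CM minus that in RPMI. The effect was smaller in hBMSC-CM (interaction called higher) for 8 of the 10 enzymes and called in the other direction for 0, beside 26.4% and 18.8% of all genes, with a median of 0.66 for the enzymes and 0.02 for all genes. PPAT, GART, PAICS, PFAS and PRPS1 had interactions of 0.93 to 1.19, among them 1.16 for GART (SE 0.059, adjusted p = 8.33e-13), 1.11 for PAICS (SE 0.058, adjusted p = 1.72e-12) and 1.06 for PFAS (SE 0.065, adjusted p = 2.01e-11). Those of ADSL (0.37, SE 0.12, adjusted p = 0.0186), GMPS (0.31, SE 0.063, adjusted p = 0.00042) and IMPDH1 (0.20, SE 0.061, adjusted p = 0.0102) were smaller. ATIC had an interaction of 0.38 (SE 0.26, adjusted p = 0.254) and IMPDH2 one of 0.02 (SE 0.063, adjusted p = 0.842). The ADSL call was lost without vehicle in RPMI replicate 2 (adjusted p = 0.0722), quizartinib in RPMI replicate 2 (adjusted p = 0.0743) or replicate 3 (adjusted p = 0.0547), and the IMPDH1 call without quizartinib in RPMI replicate 3 (adjusted p = 0.0509). The ATIC value passed the threshold when no filter on low counts was used (0.45, SE 0.084, adjusted p = 1.65e-06). That SE is small beside the SD of ATIC within groups, 0.35 on the log2 scale. The unfiltered p-value thus does not reflect the spread of the ATIC libraries and is no ground for a call. The SE of the main fit, 0.26, is larger but still smaller than that SD would give alone with these libraries.

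Among quizartinib-treated cells, hBMSC-CM gave higher levels than RPMI for 9 of the 10 enzymes and lower levels for 0, beside 35.9% and 33.9% of all genes. The exception was IMPDH2, at 0.04 (SE 0.044, adjusted p = 0.454), which passed the threshold with no filter on low counts (0.11, adjusted p = 0.0491). PPAT rose by 1.58 (adjusted p = 7.81e-16), GART by 1.42 (adjusted p = 3.54e-17), PAICS by 1.30 (adjusted p = 1.19e-16), PFAS by 1.22 (adjusted p = 2.54e-15) and PRPS1 by 1.15 (adjusted p = 1.33e-14) on the log2 scale. ATIC rose by 0.66 (adjusted p = 0.00489), IMPDH1 by 0.55 (adjusted p = 3.75e-10), ADSL by 0.35 (adjusted p = 0.00193) and GMPS by 0.32 (adjusted p = 3.06e-06). For ATIC the p-value may be too small for the spread of its libraries. All 3 hBMSC-CM libraries lay above the 3 RPMI libraries for 9 enzymes, beside 36.6% of all genes. This comparison uses the same libraries as those above and is not a separate observation.

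Conditioned medium also raised part of the pathway without the drug. With vehicle, 6 of the 10 enzymes were higher in hBMSC-CM and 0 were lower, beside 16.6% and 15.5% of all genes. These were PPAT (0.39, adjusted p = 5.19e-06), IMPDH1 (0.35, adjusted p = 2.61e-06), GART (0.26, adjusted p = 5.7e-05), PRPS1 (0.22, adjusted p = 0.000628), PAICS (0.19, adjusted p = 0.0013) and PFAS (0.16, adjusted p = 0.00755). ATIC had a log2 fold change of 0.28 (adjusted p = 0.236), which passed the threshold without vehicle in hBMSC-CM replicate 3 (0.46, adjusted p = 0.0333). It also passed with no filter on low counts (0.29, SE 0.057, adjusted p = 1.11e-05), where the SE again does not reflect the spread of its libraries. ADSL, IMPDH2 and GMPS were at −0.02, 0.02 and 0.01, none of them called. IMPDH1 was the only enzyme whose mean with quizartinib in hBMSC-CM, 109% of that with vehicle in RPMI, exceeded the mean of the vehicle-treated cells in regular medium.

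Levels can be set beside each other only per length. Per kb of canonical transcript, vehicle-treated cells in RPMI held 320 CPM of IMPDH2, well above GART at 80.5, PAICS at 64.7 and PFAS at 39.1. PRPS1 followed at 33.3, IMPDH1 at 24.9, PPAT at 18.3, GMPS at 12.5 and ADSL at 3.72. ATIC, at 31.9, ranged from 22.2 to 36.9 across its libraries and could not be ordered against PRPS1 or IMPDH1. On this scale the most abundant transcript of the chain, IMPDH2, was also the one that moved least with the drug. The counts of IMPDH2 and ADSL are uncertain because of the overlapping genes given above, and so are their places in this order. The transcripts actually used by the cells may differ in length from the canonical ones.

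Ratios within a library show the unequal changes of isozymes and neighbours without reference to the other genes. They were tested by an exact two-sided permutation test of the log2 ratio with labels permuted within the other factor (400 arrangements, for which 0.005 is the smallest p possible), 6 tests in all, adjusted by Benjamini-Hochberg. Each difference is an average over both levels of the other factor, in which the effects may be unequal. IMPDH2 reads outnumbered IMPDH1 reads 8.14 ± 0.164 to 1 (SD, n = 3 libraries) with vehicle in RPMI, and 10.1 ± 0.555 with quizartinib. In hBMSC-CM the ratio was 6.49 ± 0.188 with vehicle and 7.05 ± 0.313 with quizartinib. The log2 ratio was higher by 0.21 with quizartinib and lower in hBMSC-CM, with a difference of −0.42 (each p = 0.005 and adjusted p = 0.0075, exact permutation test). Mean log2 ratios went with the drug from 3.02 to 3.33 in RPMI and, by less, from 2.70 to 2.82 in hBMSC-CM.

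PRPS2 (chrX:12791355-12824222, plus strand) encodes the other widely expressed PRPP synthetase. PRPS1 reads stood to PRPS2 reads at 0.773 ± 0.00077 with vehicle in RPMI, 0.474 ± 0.012 with quizartinib in RPMI, 0.798 ± 0.047 with vehicle in hBMSC-CM and 0.690 ± 0.030 with quizartinib in hBMSC-CM. The ratio with quizartinib in RPMI was below that of every other library. Averaged over the other factor, the log2 ratio differed by −0.46 with quizartinib (p = 0.005, adjusted p = 0.0075, exact permutation test) and by 0.29 with hBMSC-CM (p = 0.02, adjusted p = 0.024, exact permutation test). The medium difference lay mostly in treated cells. Mean log2 ratios in RPMI and hBMSC-CM were −1.08 and −0.54 with quizartinib. With vehicle they were −0.37 and −0.33, and the libraries overlapped.

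PAICS reads outnumbered reads of its neighbour PPAT 6.11 ± 0.093 to 1 with vehicle in RPMI, 5.89 ± 0.523 with quizartinib in RPMI, 5.32 ± 0.314 with vehicle in hBMSC-CM and 4.86 ± 0.280 with quizartinib in hBMSC-CM. The medium difference was −0.24 on the log2 scale (p = 0.005, adjusted p = 0.0075, exact permutation test). The drug difference of −0.09 did not pass the threshold (p = 0.085, adjusted p = 0.085, exact permutation test). It did without quizartinib in RPMI replicate 1 (−0.13, p = 0.01, exact permutation test).

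**Figure D3:**
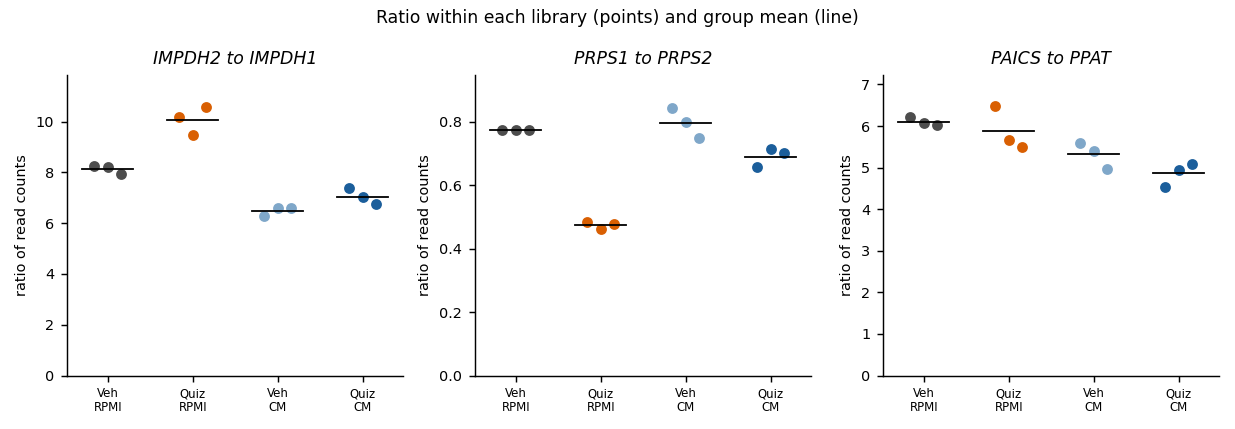
Ratio of read counts within each library (vertical axes, from 0) for IMPDH2 to IMPDH1, PRPS1 to PRPS2 and PAICS to PPAT, with a point for each library and a line for the mean of each group of 3. Quizartinib in RPMI has the highest IMPDH2 to IMPDH1 ratio, with a mean of 10.1, and the lowest PRPS1 to PRPS2 ratio, with a mean of 0.474.

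The profile of each enzyme over the 4 group means was also set against the others as a description, by the root mean square difference of centred log2 CPM. ADSL and GMPS were the most alike, at 0.028, followed by PFAS and PAICS at 0.082, PRPS1 and PAICS at 0.087, and PPAT and GART at 0.087. IMPDH2 was farthest from the mean profile of the 10, at 0.49, and ATIC was nearest to it, at 0.084. The place of ATIC is uncertain, since its SD within groups was 0.35 on the log2 scale. Outside the 10 enzymes, the genes nearest to the mean profile among 9271 at a mean level of 10 CPM or more were MFHAS1 (0.015), ISG20L2 (0.016), TBRG4 (0.019), UTP11 (0.019) and PGK1 (0.020). Of those 9271 genes, 1.79% were nearer to the mean profile than ATIC and 42.9% nearer than IMPDH2, with the other enzymes in between.

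The wider purine pathway was followed in 6 lists of 55 genes in all, of which 50 passed the filter. MTHFS, GMPR, NT5E, XDH and GDA did not, with at most 27 counts in any library. Quizartinib in RPMI lowered 32 of the 50 and raised 11 of them, with a median log2 fold change of −0.55, and in hBMSC-CM it lowered 31 and raised 9. The shares of all genes given above, 39.4% lower and 39.8% higher in RPMI and 33.6% lower and 33.5% higher in hBMSC-CM, are the background for these counts and for those of each list below. The interaction was called higher for 25 and lower for 6, beside 26.4% and 18.8% of all genes.

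Folate one-carbon supply is the source of part of the ring's carbon. All 9 of its tested genes were called lower in both media, beside 39.4% of all genes in RPMI and 33.6% in hBMSC-CM. The medians were −1.47 in RPMI and −0.78 in hBMSC-CM. By the interaction 7 of the 9 had a smaller fall in hBMSC-CM, beside 26.4% of all genes called higher. SLC19A1, the reduced folate carrier, was at 43.8 ± 2.18 CPM with vehicle and 7.16 ± 0.818 with quizartinib in RPMI (SD, n = 3), and at 57.0 ± 1.49 and 29.9 ± 1.23 in hBMSC-CM. It fell by 2.60 and 0.93 on the log2 scale. MTHFD1L, a mitochondrial formate-producing enzyme, fell by 1.85 in RPMI and by 0.91 in hBMSC-CM.

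In PRPP supply 4 of 9 genes were called lower and 3 higher in RPMI, with a median of 0.06, shares near those of all genes (39.4% and 39.8%). In hBMSC-CM 4 were lower and 1 higher, with a median of −0.11, beside 33.6% and 33.5% of all genes. PRPS2 went from 89.1 ± 0.578 to 45.3 ± 1.35 CPM in RPMI and from 101 ± 3.96 to 69.0 ± 4.45 in hBMSC-CM, log2 fold changes of −0.98 and −0.54. RPIA, which makes ribose 5-phosphate in the pentose phosphate pathway, fell by 1.38 and 0.55. TKT, a transketolase, and PRPSAP1, a PRPP synthetase-associated protein, rose by 0.16 and 0.21 in RPMI.

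Of the 12 genes that complete AMP and GMP and phosphorylate nucleotides, 8 were lower and 2 higher in RPMI, and 7 and 2 in hBMSC-CM. NME1, a nucleoside diphosphate kinase, was at 105 ± 4.35 and 14.5 ± 0.378 CPM in RPMI and at 128 ± 11.5 and 58.8 ± 3.76 in hBMSC-CM, log2 fold changes of −2.86 and −1.12. Its count is uncertain, since NME2 is a near-identical neighbour. ADSS, the adenylosuccinate synthase that opens the branch to AMP, fell by 0.84 in RPMI and by 0.30 in hBMSC-CM, and AK6, an adenylate kinase whose gene overlaps TAF9 so that its count is uncertain, by 1.09 and 0.38. The 2 that rose in both media were AK1, by 1.74 and 1.51, and ADSSL1, by 2.38 and 0.70. Both were at low levels, in RPMI 0.608 CPM with vehicle and 1.98 with quizartinib for AK1 and 1.63 and 8.52 for ADSSL1.

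Salvage, which rebuilds nucleotides from free bases and nucleosides, had 5 of 7 genes lower and 0 higher in RPMI, and 6 lower and 0 higher in hBMSC-CM, where 33.6% of all genes were lower and 33.5% higher. HPRT1, which salvages hypoxanthine and guanine, fell by 0.71 in RPMI and by 0.51 in hBMSC-CM, with no call for the difference between media (0.20, adjusted p = 0.189). APRT, which salvages adenine, fell by 1.13 and 0.59. PNP and MTAP, the phosphorylases that release bases from nucleosides and from methylthioadenosine, fell by 1.70 and 1.44 in RPMI and by 0.52 and 0.58 in hBMSC-CM.

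In interconversion and breakdown 5 of 10 genes were called higher and 4 lower in RPMI, shares near those of all genes (39.8% and 39.4%), and 5 and 3 in hBMSC-CM. The interaction was called higher for 5 of the 10 and lower for 2, ADA and AMPD3, beside 26.4% and 18.8% of all genes. ADA, which deaminates adenosine, was at 24.0 ± 1.00 CPM with vehicle and 68.2 ± 2.09 with quizartinib in RPMI, and at 22.7 ± 0.701 and 36.9 ± 1.20 in hBMSC-CM. It rose by 1.51 and 0.70, and AMPD3, an AMP deaminase, by 1.23 and 0.80. SAMHD1, which breaks down deoxynucleotides, rose by 0.92 in RPMI and by 1.25 in hBMSC-CM. Both subunits of ribonucleotide reductase used in dividing cells fell, RRM2 by 2.84 and 1.80 and RRM1 by 1.41 and 0.95, while RRM2B, the remaining gene of that list, rose by 0.30 and 0.22.

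**Figure D4:**
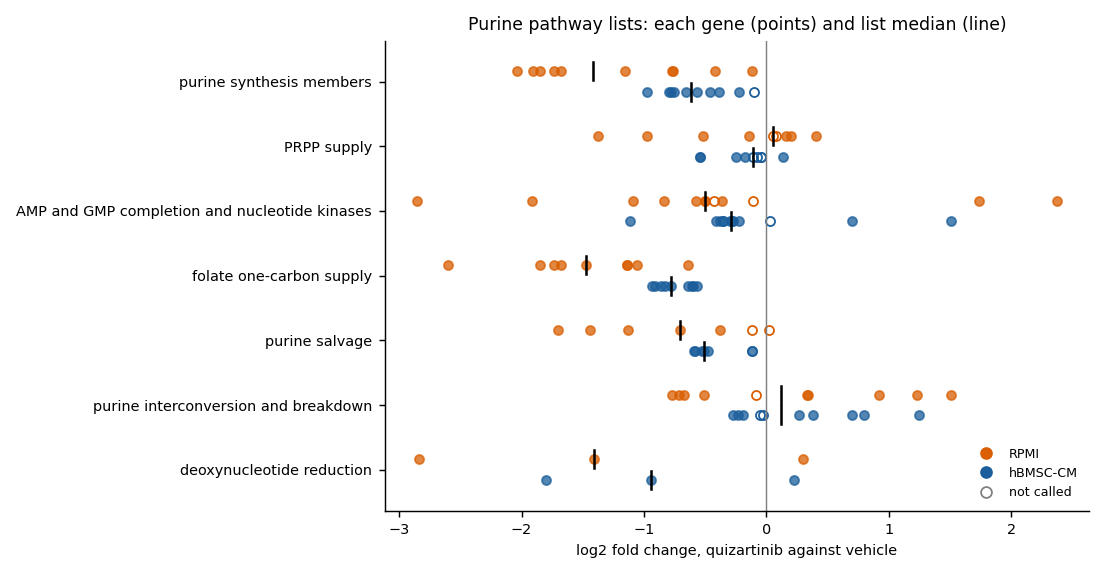
Log2 fold change of quizartinib against vehicle (horizontal axis) for each tested gene of the purine synthesis enzymes and of 6 other purine pathway lists, in RPMI (orange) and hBMSC-CM (blue), with open points for genes not called and a line at each list's median. The medians in RPMI are −1.42 for the synthesis enzymes, −1.47 for folate one-carbon supply and 0.06 for PRPP supply.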

How the data were processed

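RNA-seq of 12 MOLM-13 libraries was analysed. The authors trimmed adapters (BBDuk), aligned reads to hg38 and quantified genes with STAR (version 2.6.0a per the labels), summed Ensembl identifiers of the same name, and deposited raw counts without normalization. Strand use is not given in the sources used here, and reads of overlapping or near-identical genes cannot be reassigned. Of 57353 gene names, 30572 had a count and 12998 passed the filter. Libraries were grouped by their labels, and all columns had a sample.

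TMM factors were applied to the counts, and edgeR 4.0.16 (glmQLFit, glmQLFTest) was run in R 4.3.3. A single model of 4 group means with 8 residual degrees of freedom held all libraries. Two-sided p-values were adjusted over all genes (Benjamini-Hochberg), with a threshold of 0.05. CPM values are TMM-scaled, given as mean ± SD. On simulated counts for quizartinib against vehicle in RPMI (12998 genes), 196 of 200 changed genes were found and 12 unchanged genes were called.

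The 10 enzymes, the gene lists and the tests were chosen with earlier results of these data known. All 10 enzymes are named. From each list the rule names PRPS2, HPRT1, APRT, ADSS and the 2 genes with the largest quizartinib change in RPMI at a mean of at least 10 CPM. AK1, ADSSL1, TKT, PRPSAP1, SAMHD1 and RRM2B were named after their values were seen. Positions and lengths are from GENCODE v44 (GRCh38), a later release than the one the authors used, and promoter windows from RefSeq (GRCh38.p14). Alternatives used DESeq2 1.42.0, limma 3.58.1, other scalings and filters, a replicate block, and each library left out.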

Additional observations from a re-analysis of the deposited data

Results flagged for a closer look

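The effect of quizartinib differed between media by the interaction term of edgeR's quasi-likelihood test for 8 of the 10 enzymes and for 14 of the 15 other genes named by rule, which is why they are listed. Most of those 15 were named for a large change in RPMI, the value that the interaction subtracts. Their count is therefore no measure of how common such differences are in the pathway. Values are the log2 fold change in hBMSC-CM minus that in RPMI, so that a positive value for a gene that fell marks a smaller fall in hBMSC-CM. Among the enzymes the difference was 1.19 for PPAT, 1.16 for GART, 1.11 for PAICS, 1.06 for PFAS, 0.93 for PRPS1, 0.37 for ADSL, 0.31 for GMPS and 0.20 for IMPDH1.

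Among the other genes of the pathway that fell in both media it was 1.74 for NME1, 1.67 for SLC19A1, 1.18 for PNP, 1.03 for RRM2, 0.94 for MTHFD1L, 0.86 for MTAP, 0.83 for RPIA, 0.71 for AK6, 0.54 for APRT, 0.54 for ADSS, 0.46 for RRM1 and 0.44 for PRPS2. It was −0.80 for ADA and −0.44 for AMPD3, which rose in both media and rose less in hBMSC-CM. Over all genes tested, 26.4% had an interaction called higher and 18.8% one called lower. Of all 50 tested genes of the 6 lists, 25 were called higher and 6 lower.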

How the results depend on the processing

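Of 1090 values of the 10 enzymes under the alternatives, 1064 kept their direction and their side of the threshold, 11 lost a call, 15 gained one and 0 called values changed sign. For the other 15 genes named by rule these were 1621, 11, 3 and 0 of 1635. The calls lost or gained belong to ADSL, ATIC, IMPDH1, IMPDH2, RPIA and RRM1. The counts of enzymes called moved by at most 2. With each library left out in turn, the drug difference in the PAICS to PPAT ratio was −0.13 to −0.070 on the log2 scale and passed the threshold only without quizartinib in RPMI replicate 1. Library size alone shifted the median of all genes by 0.10 for quizartinib in hBMSC-CM, and upper-quartile factors by 0.11 in RPMI, about the size of the IMPDH2 values. Without a filter 70.6% of interaction calls were higher, beside 58.5% in the main analysis.

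Replicate numbers did not pair the libraries: deviations of same-numbered libraries correlated at −0.23 to 0.098, and 0 of 12 libraries matched best with their own number. With the replicate number as a block, the enzymes called stayed at 10 for quizartinib in RPMI, 9 for quizartinib in hBMSC-CM, 8 for the interaction, 9 for medium with quizartinib and 6 for medium with vehicle, with 10216 genes called for quizartinib in RPMI in place of 10299. ADSL, with the fewest counts, and ATIC, with the widest spread, limit what can be said of small differences.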
